A study of Homo sapiens with 9 samples.

Results

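The inflammasome pathway was followed through 10 of the 16222 genes in the deposited tables, across 3 conditions. They are the sensors NLRP3, NLRP1, NLRC4 and AIM2, the related receptor NLRP12, the ATP receptor P2RX7, the adaptor PYCARD, the caspases CASP1 and CASP4, and the pore protein GSDMD. Rows were matched by symbol. The set was chosen by pathway and by expression levels already known from an earlier analysis of these libraries, NLRP12 and P2RX7 being added to the core components for their levels in the 3 groups. The counts of members that passed a test, and the adjusted p-values of single members, therefore describe these libraries and support nothing further. Counts were high enough to test 9 of the 10, out of 12970 genes tested, and AIM2 was not tested.

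RNA was sequenced from THP-1, a human monocytic leukaemia line, labelled wild type. All cells, the controls included, had first received PMA, a phorbol ester that turns this line adherent and macrophage-like. They were then kept with PBS (control), with LPS (lipopolysaccharide, a Gram-negative bacterial surface molecule), or with LPS and ABS (LPS_ABS). ABS is left as an abbreviation in the labels, and apoptotic bodies appear in the series title. No group had ABS without LPS, and neither dose nor time is stated in the labels. There were 3 libraries per group. The labels do not call them separate cultures, so a p-value here reflects only how these libraries varied, which may be technical.

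Inflammasomes are cytosolic complexes in which a sensor, on meeting a microbial or danger signal, gathers the adaptor PYCARD (also called ASC) and activates caspase-1. Caspase-1 matures the cytokines IL-1 beta and IL-18 and cuts gasdermin D, whose fragments form pores in the plasma membrane. In macrophages the NLRP3 pathway is classically described as needing a priming signal such as LPS and then a trigger such as extracellular ATP acting through P2RX7. Caspase-4 binds intracellular LPS directly and also cuts gasdermin D. NLRP12 is a myeloid NLR protein best known as a brake on NF-kB signalling and also reported in inflammasome-type complexes. The values below are mRNA levels, and say nothing of assembly, cleavage or pore formation.

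Promoter sequences from RefSeq (GRCh38.p14) were found for 7 of the 10 genes, CASP1, NLRP1 and GSDMD not being matched. The 3 shown, in the direction of transcription, were picked because NLRP12 and P2RX7 had the largest fold changes of the members tested in LPS against control and NLRP3 is the sensor of highest level. NLRP12 lies on chromosome 19, minus strand, and the stretch is chr19:53824395-53824564, from 250 to 81 bases before the RefSeq start. P2RX7 lies on chromosome 12, plus strand, and the stretch is chr12:121132626-121132818, from 250 to 58 bases before the start. NLRP3 lies on chromosome 1, plus strand, and the stretch is chr1:247415923-247416155, from 250 to 18 bases before the start. Bases that GENCODE places in an exon were left out. Capitals mark the PU.1 core GAGGAA and the C/EBP-ATF element core TGATGNAA, read on either strand.
NLRP12: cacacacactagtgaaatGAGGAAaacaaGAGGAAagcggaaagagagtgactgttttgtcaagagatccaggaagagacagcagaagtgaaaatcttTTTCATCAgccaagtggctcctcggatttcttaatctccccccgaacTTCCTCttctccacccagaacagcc
P2RX7: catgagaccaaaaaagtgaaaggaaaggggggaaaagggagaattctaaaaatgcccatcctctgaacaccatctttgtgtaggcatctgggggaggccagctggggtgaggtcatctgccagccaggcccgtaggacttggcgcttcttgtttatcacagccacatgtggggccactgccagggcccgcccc
NLRP3: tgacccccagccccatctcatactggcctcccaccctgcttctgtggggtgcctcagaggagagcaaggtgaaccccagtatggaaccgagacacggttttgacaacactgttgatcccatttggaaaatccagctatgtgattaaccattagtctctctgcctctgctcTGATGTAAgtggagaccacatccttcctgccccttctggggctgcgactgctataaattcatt

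A set of 5 motifs was searched on both strands of the 250 bases before each start, after the values had been seen. The ISRE core was present in 3.02% of 35116 such RefSeq windows, the GAS TTCNNNGAA in 6.57%, the NF-kB motif in 9.96%, the PU.1 core in 23.6% and the C/EBP-ATF element core in 3.14%. The NLRP12 window held the PU.1 core at 4 places, 3 of them in the printed stretch, and the C/EBP-ATF core at 152 to 145 bases before the start. NLRP3 held the C/EBP-ATF core at 80 to 73 bases before its start and a PU.1 core at 13 to 8, outside the printed stretch. None of the 5 was in the P2RX7 window. A match is a run of letters, not a binding site, and no factor's binding was measured.

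Control libraries held 39791729 to 41608801 counts, LPS libraries 39168526 to 41679412 and LPS_ABS libraries 38506162 to 38893597. Of 12 macrophage identity markers 11 were at 1 CPM or more, all but CD163. Summed, they ranged in controls from 1398 to 1487 CPM (counts scaled to library size after TMM), with LPS from 1542 to 1676 and with LPS_ABS from 1744 to 2029.5. T cell markers summed to 0.17 CPM at most, B cell markers to 19.6, fibroblast markers to 6.53 and epithelial markers to 4.01. Endothelial markers reached 359 CPM through PECAM1, and neutrophil markers 2625 CPM through CSF3R, CXCR2, ELANE, MPO and AZU1, genes that myeloid lines also express. The part of the rising macrophage markers in the results was not tested. The LPS_ABS libraries stood apart in GC content. The slope of log2 counts per 10 GC points, relative to all libraries, was 0.22 to 0.37 there and -0.31 to -0.02 in the other 6. Ribosomal protein genes took 7.51% of counts in LPS_ABS 3 and 8.75% to 10.7% in the other 8 libraries. Fold changes are therefore also given after a correction for GC content. Values without LPS_ABS 3 are named for only some of the genes where they differ. The GC trend coincides with the LPS_ABS group, so the correction may also remove change that came with treatment. The trend and the treatment cannot be told apart here. In bulk RNA, fewer cells of a kind and less RNA per cell cannot be told apart.

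Compared per length in the deposited FPKM, the adaptor was far above the sensors. In controls PYCARD stood at 208 ± 13.5 FPKM (SD, n = 3, as for all means here), above 97.5% of the genes tested. The order of control means after it was CASP4 (42.5 ± 8.24), NLRP3 (37.3 ± 2.20), GSDMD (34.1 ± 1.57), CASP1 (16.0 ± 3.85) and P2RX7 (1.85 ± 0.21). CASP4 overlapped both NLRP3 and GSDMD in the control libraries. NLRP12 (0.60 ± 0.24) and NLRC4 (0.58 ± 0.05) also overlapped, and AIM2 (0.06 ± 0.03) and NLRP1 (0.02 ± 0.004) were lowest. With LPS, NLRP12 reached 6.84 ± 2.01 FPKM, moving from percentile 18.4 to percentile 56.4 of the genes tested. P2RX7 reached 8.51 ± 1.28 FPKM, from percentile 31.6 to 60.7. With LPS_ABS, NLRP12 was at 10.7 ± 5.15 FPKM, overlapping CASP1 at 8.01 ± 1.77.

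**Figure D1:**
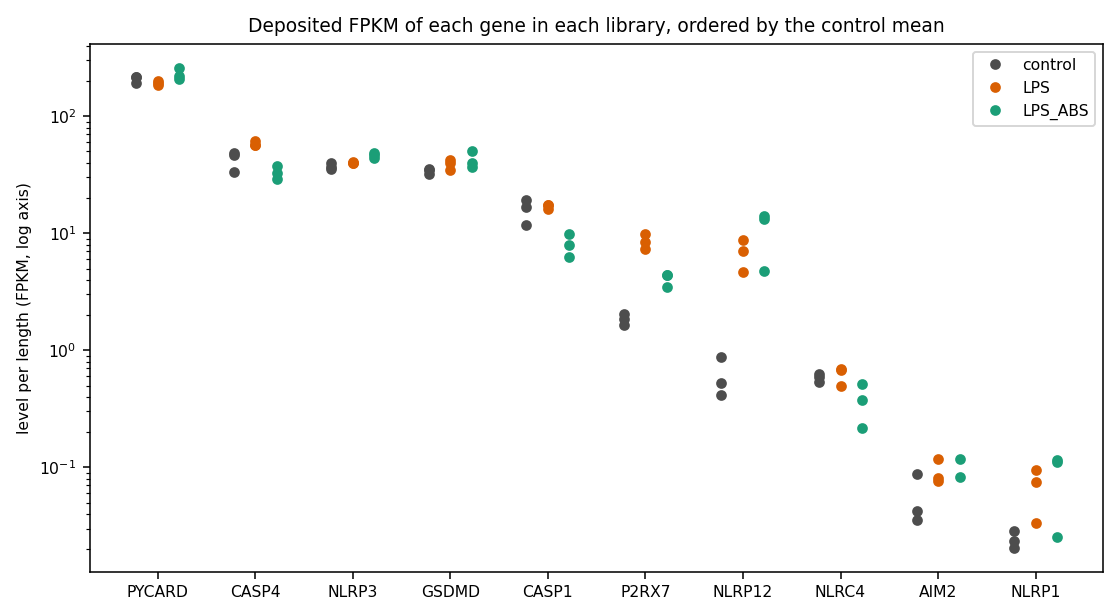
Deposited FPKM of the 10 genes (log axis), a point per library, coloured by group and ordered by the control mean. PYCARD lies between 183 and 259 FPKM in every library, whereas NLRP12 and P2RX7 sit well above their control points with LPS and with LPS_ABS; the LPS_ABS library in which AIM2 had no count is not drawn.

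P2RX7, the ATP-gated channel whose opening lets potassium out of the cell, was at 10.5, 9.48 and 8.51 CPM in the 3 control libraries. It was at 42.6, 38.3 and 52.9 CPM with LPS, and at 25.5, 24.5 and 19.0 CPM with LPS_ABS. The 3 groups did not overlap in any pair, with controls lowest, LPS highest and LPS_ABS between. LPS against control gave a log2 fold change of 2.23 ± 0.18 (SE), 4.69-fold. LPS_ABS stood 2.42-fold above control (1.27 ± 0.17). Its changes are given without a p-value because the gene was picked with its levels in all 3 groups known.

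LPS_ABS was lower than LPS by 0.96 ± 0.17 on the log2 scale for P2RX7, that is 1.94-fold. The GC content of its transcript, 47.7%, is near the middle of the genes tested, and the corrected fold change was -0.96. Over 19 alternative analyses the values ranged from -1.08 to -0.78. The lowest and highest counts behind these levels were 346 and 439 in controls, 1604 and 2055 with LPS, and 713 and 908 with LPS_ABS. GENCODE places the processed pseudogene Z98941.1 within P2RX7 on the same strand.

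NLRP12 was at 3.50, 2.09 and 1.70 CPM in controls, at 18.9, 35.8 and 29.9 CPM with LPS, and at 64.1, 57.9 and 20.7 CPM with LPS_ABS. Every library with LPS was above every control. LPS_ABS 3 lay within the LPS range and the other 2 LPS_ABS libraries lay above it. LPS against control gave 3.53 ± 0.42 on the log2 scale, 11.6-fold, and LPS_ABS against control gave 4.29 ± 0.43, 19.5-fold, again without a p-value for a gene picked with its levels known. After the GC correction these were 3.56 and 3.93.

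Between LPS_ABS and LPS the difference for NLRP12 was 0.75 ± 0.37 on the log2 scale, 1.69-fold. Without LPS_ABS 3 it was 1.11, with the GC correction 0.36, and with both changes together 0.73. The LPS_ABS mean was 47.6 ± 23.4 CPM.

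**Figure D2:**
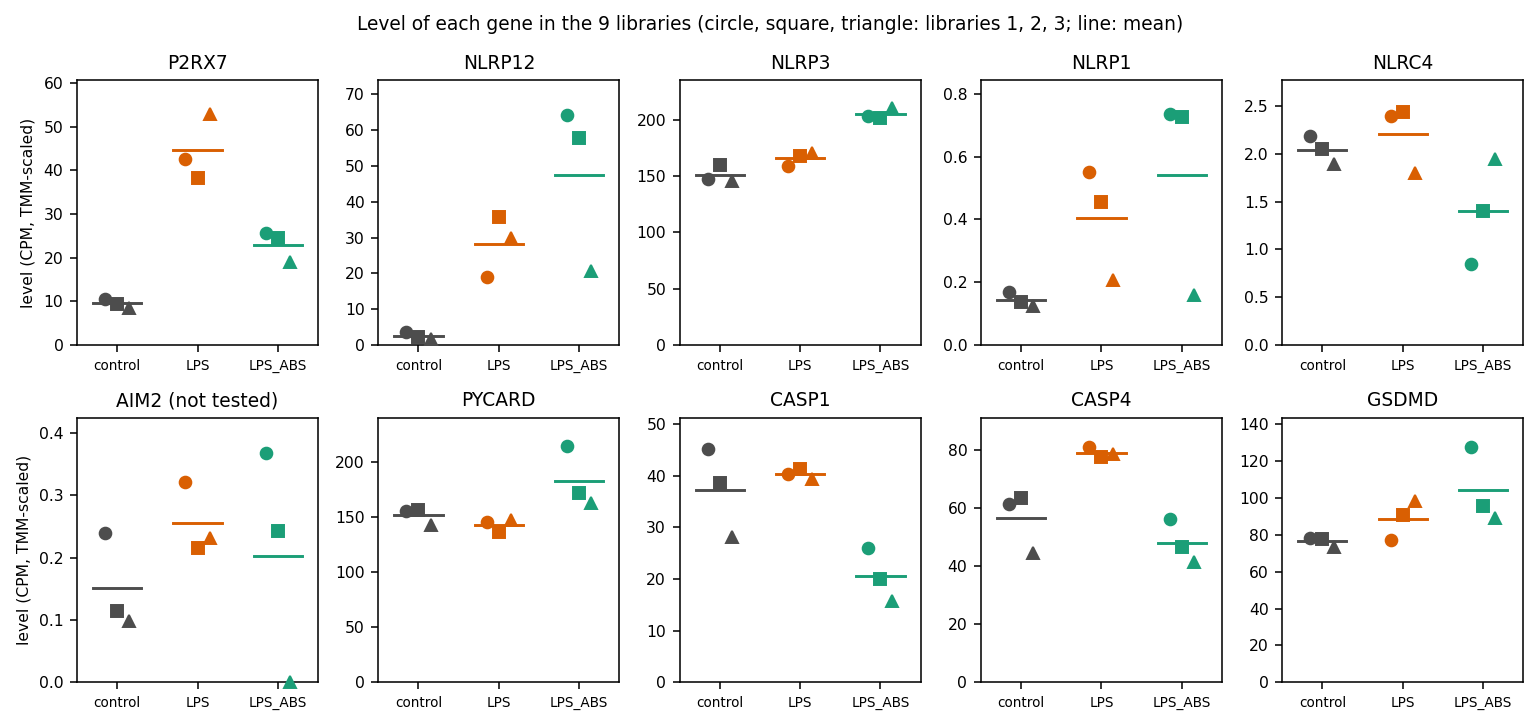
Level of each of the 10 genes in the 9 libraries (TMM-scaled CPM, linear axes from 0), by group; circle, square and triangle are libraries 1, 2 and 3 and the line is the group mean. P2RX7 falls into 3 separate groups, while NLRP12 and NLRP1 in LPS_ABS 3 lie well below the other 2 LPS_ABS libraries.

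The genes whose log2 CPM followed P2RX7 most closely over the 9 libraries, among 10633 genes averaging 100 counts or more per library, were ALDH1L2, MX1, ASS1, LAIR1 and CALN1 (Pearson r from 0.984 to 0.979). MX1, an interferon-induced antiviral GTPase, averaged 102 CPM in controls, 397 with LPS and 226 with LPS_ABS. For NLRP12 they were SESN2, SLC3A2, ZNF821, CEBPB and NDST2 (r from 0.993 to 0.992). SESN2, a stress-induced regulator of mTORC1, averaged 20.3, 117 and 190.0 CPM in the same order. The paired values come from the same libraries, with their depth and groups in common, so the correlations describe a pattern and carry no p-value.

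NLRP3, the sensor of potassium efflux and other cell stress, was at 147, 159.5 and 146 CPM in controls, at 159, 167 and 169.9 with LPS, and at 204, 202 and 210.3 with LPS_ABS. The LPS_ABS libraries lay above all 6 others, and LPS and control overlapped. LPS against control was 0.13 ± 0.10 (adjusted p = 0.433, edgeR quasi-likelihood test, Benjamini-Hochberg over 12970 genes, 95% interval -0.12 to 0.39). The interval was built on the 6 residual degrees of freedom alone and is wider than the test implies. LPS_ABS was above LPS by 0.31 ± 0.10, 1.24-fold (adjusted p = 0.036), and above control by 0.44 ± 0.10, 1.36-fold (adjusted p = 0.0079). With the GC correction these were 0.17 (adjusted p = 0.363) and 0.36 (adjusted p = 0.0571), neither passing. The difference from LPS also missed the threshold when any of 8 libraries was left out (adjusted p up to 0.0852) and passed only without LPS_ABS 1 (0.04).

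The remaining sensors were scarce. NLRP1, which detects protease activity and other intracellular stress, had 5 to 7 counts in controls, 8 to 24 with LPS and 26, 27 and 6 with LPS_ABS. Its LPS_ABS change against control was 1.89 ± 0.68 (adjusted p = 0.0475), 1.60 with the GC correction (adjusted p = 0.155), and it passed in only 1 of 9 analyses that each left out a library. NLRP1 overlaps the processed pseudogene AC055839.1, so its few counts are uncertain.

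NLRC4, which binds NAIP proteins that recognise flagellin and secretion-system proteins, was at 2.18, 2.05 and 1.89 CPM in controls. It was at 2.39, 2.44 and 1.80 CPM with LPS and at 0.85, 1.40 and 1.94 CPM with LPS_ABS. LPS_ABS 3 lay within the range of the other groups and LPS_ABS 1 and 2 lay below it. LPS_ABS against LPS was -0.66 ± 0.32 (adjusted p = 0.121 in edgeR) and -0.97 without LPS_ABS 3 (adjusted p = 0.0435).

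AIM2, the sensor of cytosolic double-stranded DNA, had 10, 5 and 4 counts in controls, 14, 9 and 9 with LPS, and 13, 9 and 0 with LPS_ABS. A count of 0 in LPS_ABS 3 allows a level of up to 0.0797 CPM, taking 3 counts as the limit of counting error. The groups overlapped and no fold change is given.

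PYCARD, the adaptor, was at 156, 157 and 142 CPM in controls, at 145, 137 and 148 with LPS, and at 214, 172 and 163 with LPS_ABS. The LPS_ABS libraries were the 3 highest, and LPS overlapped control. LPS_ABS was above LPS by 0.35 ± 0.13, 1.28-fold (adjusted p = 0.0445, edgeR). PYCARD is GC-rich, 61.7%, and with the GC correction the direction turned, to -0.14 (adjusted p = 0.547). The call was also lost when any of 8 libraries was left out, LPS_ABS 3 being the exception. Its antisense neighbour PYCARD-AS1 cannot be separated from it where the counting ignored strand, which was not given in the sources used here.

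CASP1, the effector protease of the canonical complexes, was at 45.1, 38.6 and 28.0 CPM in controls and at 40.2, 41.2 and 39.3 with LPS. With LPS_ABS it was at 25.9, 20.0 and 15.7 CPM, below all other 6 libraries. LPS_ABS was lower than LPS by 0.97 ± 0.20 on the log2 scale, 1.96-fold (adjusted p = 0.0064, edgeR), and lower than control by 0.86 ± 0.20, 1.81-fold (adjusted p = 0.0076). Both falls passed with any 1 library left out. CASP1 is GC-poor, 41.0%, and with the GC correction the differences were -0.50 (adjusted p = 0.0993) and -0.32 (adjusted p = 0.284). LPS alone gave 0.11 ± 0.20 (adjusted p = 0.756). The CARD16 gene beside it carries a near-identical CARD sequence and may share reads.

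CASP4, the caspase that binds LPS, was at 61.2, 63.5 and 44.6 CPM in controls, at 80.7, 77.3 and 78.4 with LPS, and at 56.2, 46.3 and 41.3 with LPS_ABS. LPS libraries were above all others, and LPS_ABS overlapped control. LPS against control was 0.48 ± 0.16, 1.40-fold, just missing the threshold (adjusted p = 0.0591, edgeR). It passed in 9 of 19 alternatives, among them without LPS_ABS 1 (0.033) and without LPS_ABS 3 (0.0335). LPS_ABS was lower than LPS by 0.72 ± 0.16, 1.64-fold (adjusted p = 0.0077), and this held with any 1 library left out. With the GC correction it was -0.62 (adjusted p = 0.0601).

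GSDMD, the pore protein, was at 78.6, 77.7 and 73.7 CPM in controls, at 77.1, 91.0 and 98.6 with LPS, and at 128, 95.5 and 89.2 with LPS_ABS. LPS overlapped both other groups, and LPS_ABS lay above control. LPS_ABS against control was 0.44 ± 0.15, 1.36-fold (adjusted p = 0.0395, edgeR). GSDMD has the highest GC content of the members, 64.6%, and with the GC correction the change was 0.02 (adjusted p = 0.956). Leaving out control 1, 2 or 3, LPS 3, or LPS_ABS 1 or 2 also ended the call, with adjusted p of 0.0535 to 0.131.

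Ratios between members within a library show the same values another way. CASP1 per PYCARD, in FPKM, was 0.076 ± 0.015 in controls, 0.088 ± 0.006 with LPS and 0.035 ± 0.004 with LPS_ABS. GSDMD per CASP1 was 2.21 ± 0.47, 2.29 ± 0.31 and 5.33 ± 0.50 in the same order. CASP1 per CASP4, 2 caspases closer in GC content, was 0.37 ± 0.04, 0.29 ± 0.01 and 0.24 ± 0.02. NLRP12 per NLRP3 was 0.016 ± 0.007, 0.17 ± 0.05 and 0.23 ± 0.12. The first pair combines a GC-poor and a GC-rich gene, as does the second. In LPS_ABS against LPS the GC correction took the log2 change of CASP1 from -0.97 to -0.50. That of PYCARD went from 0.35 to -0.14 and that of GSDMD from 0.23 to -0.27. The ratios themselves were not corrected, and how far the GC trend enters them was not tested.

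**Figure D3:**
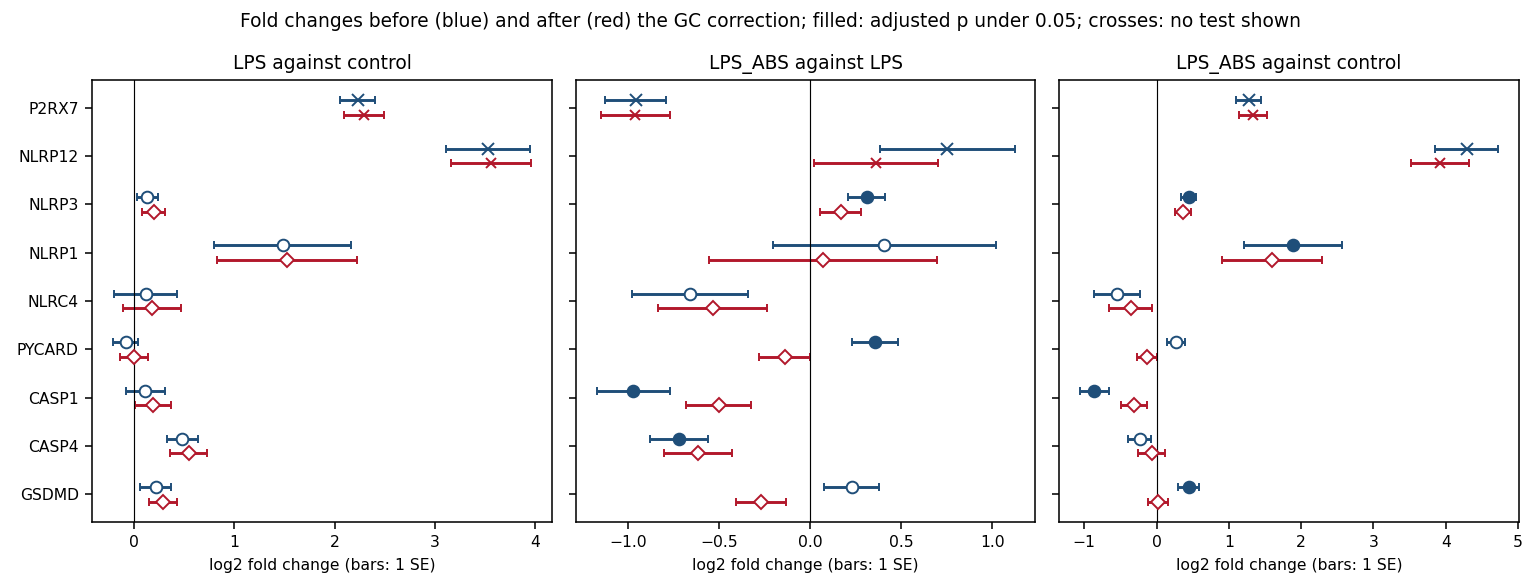
Log2 fold changes (bars, 1 SE) of the 9 genes tested in the 3 comparisons, before (blue) and after (red) the GC correction. Circles and diamonds are filled where the adjusted p was under 0.05, and crosses are P2RX7 and NLRP12, shown without a test; the circles of CASP1 and NLRP3 are filled in the panels with LPS_ABS and their diamonds are not.

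LPS against control asks what LPS changed. Of the 9 members tested 2 rose, P2RX7 and NLRP12, and the other 7 did not pass, beside 14.9% of all genes tested called in either direction, 7.71% higher and 7.19% lower. The members' median log2 fold change was 0.21 and that of all genes -0.03. With the GC correction the same 2 genes rose, beside 19.2% of all genes, 11.3% higher and 7.93% lower. In 4 of the 9 (P2RX7, NLRP12, NLRP1 and CASP4) the groups did not overlap, beside 42.6% of all genes tested. The levels in all 3 groups were known when the members were chosen, and nothing is read from the members' counts in any comparison.

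Other genes of the pathway, listed by role with earlier results of these data known, changed with LPS as follows. IFI16, a nuclear DNA sensor of the AIM2 family, rose from 25.0 to 76.2 CPM (1.61, adjusted p = 0.0079) and was the 1 of 14 other sensors to pass (list median -0.04). Among 18 licensing factors and inhibitors (median 0.17), TXNIP, a thioredoxin-binding protein linked to NLRP3, rose from 184.0 to 696 CPM (1.92, adjusted p = 1.8e-04, edgeR). GBP2, an interferon-induced GTPase, and HSP90AB1, a chaperone of NLR proteins, fell by 0.87 and 0.98. After the GC correction 5 of these 18 rose and 2 fell.

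Of 14 genes of execution and cytokines (median 0.17), 2 rose and 1 fell with LPS. GSDME, another gasdermin, rose from 1.99 to 7.50 CPM (1.91, adjusted p = 0.004, edgeR) and IL18 rose from 11.5 to 19.0 CPM (0.73, adjusted p = 0.0329), the latter passing in 4 of 9 analyses that left out a library. IL1B, the cytokine that caspase-1 matures, fell from 42.0 to 12.6 CPM (-1.73, adjusted p = 2.3e-04). All 3 LPS libraries, the highest at 13.8 CPM, were below the 37.5, 37.6 and 50.8 CPM of controls.

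Of 14 other purinergic genes (median -0.50), 2 rose and 1 fell with LPS. P2RX4, another ATP-gated channel and the RefSeq neighbour of P2RX7, rose from 41.5 to 87.8 CPM (1.08, adjusted p = 0.0022, edgeR) and P2RX1 from 7.95 to 19.4 CPM (1.29, adjusted p = 0.0014). P2RY6, a receptor for UDP, fell from 37.3 to 19.5 CPM (-0.94, adjusted p = 0.0048). NEK7 (0.27), NAIP (-0.10), CARD8 (0.19), MEFV (-0.28), NINJ1 (0.46) and PANX1 (-0.28) did not pass, and CASP5 had too few counts to be tested.

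LPS_ABS against LPS asks what changed further with ABS. Of the 9 members tested 2 rose (NLRP3 and PYCARD) and 3 fell (CASP1, CASP4 and P2RX7), beside 35.6% of all genes tested called in either direction, 16.8% higher and 18.8% lower. The members' median was 0.23 and that of all genes 0.02. With the GC correction 1 member was called, beside 7.04% of all genes (3.33% higher, 3.71% lower), and the members' median was -0.27. That member, P2RX7, was picked with its levels in these groups known, so its call supports nothing. In 5 of the 9 the groups did not overlap, beside 46.2% of all genes. With total counts in place of TMM the median of all genes shifted by -0.10, and of the members the 3 falls were called.

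**Figure D4:**
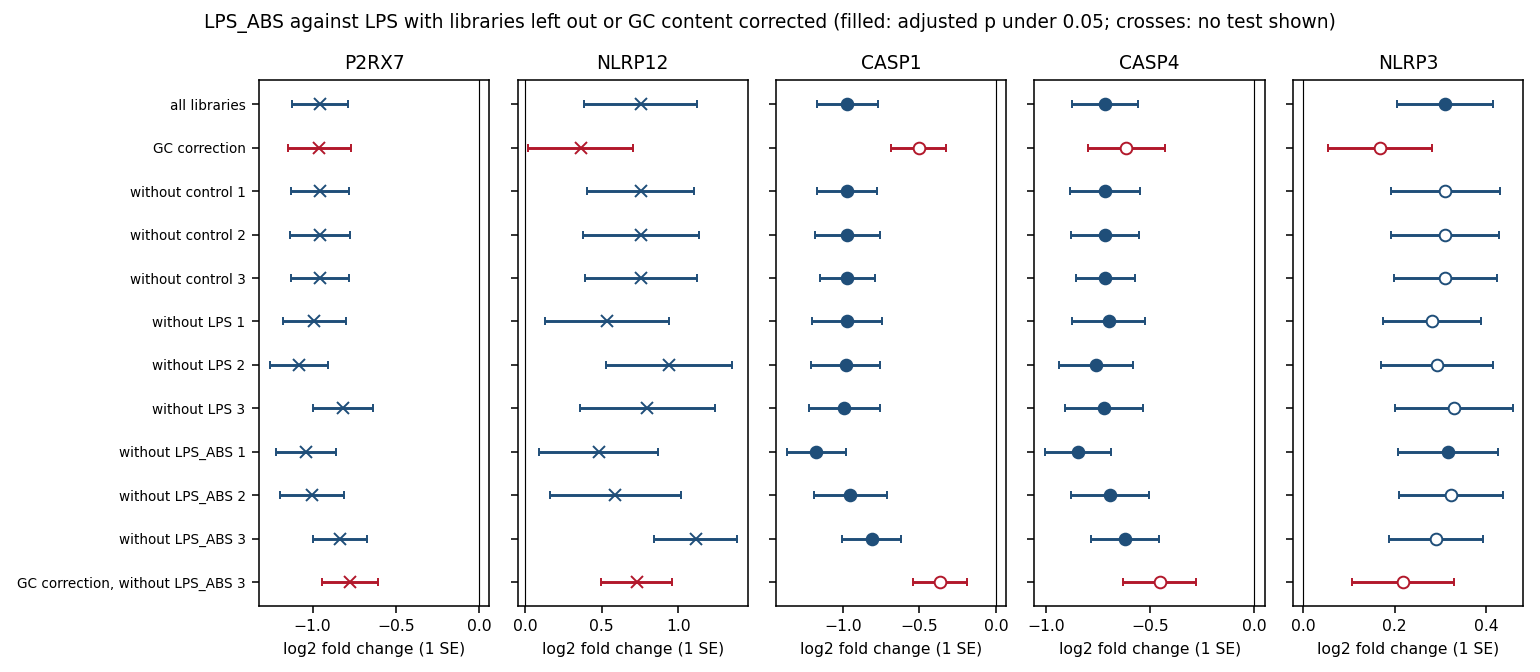
LPS_ABS against LPS for 5 members, as log2 fold change (bars, 1 SE), with all libraries, with the GC correction (red) and with each library left out. Circles are filled where the adjusted p was under 0.05 and crosses are shown without a test; CASP1 and CASP4 are filled in every row but the red ones, and NLRP12 lies highest without LPS_ABS 3, at 1.11.

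Among the other genes, IL1B had the largest rise of those named in this comparison, from 12.6 to 68.9 CPM (2.45, adjusted p = 3.1e-04, edgeR), and 2.58 with the GC correction. Its LPS_ABS libraries, at 85.4, 50.7 and 70.6 CPM, were all above the LPS libraries. IFI16 fell back to 24.8 CPM (-1.62, adjusted p = 0.0064), with 41.6, 19.4 and 13.5 CPM in LPS_ABS 1, 2 and 3. It still passed with the GC correction (-1.15, adjusted p = 0.0369). With the correction and without LPS_ABS 3 it did not pass (adjusted p = 0.0847). TXNIP fell to 346 CPM (-1.01, adjusted p = 0.0062), with 0.0568 after the correction.

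By role, 3 of 14 other sensors rose and 3 fell (median 0.26). NLRC5 (0.96) and MEFV, the pyrin sensor (0.98), rose and CARD8, a sensor related to NLRP1, fell by 0.44, and none of these 3 passed after the GC correction. Of 18 licensing factors and inhibitors 3 rose and 8 fell (median -0.50), DPP8 (-1.06), MARCHF7 (-0.98) and GBP3 (-1.16) among the falls. After the GC correction none of these 8 falls passed, and the 1 gene of the list that did was a rise, HSP90AB1 (0.70). Of 14 genes of execution and cytokines 2 rose and 4 fell (median -0.25). IL18BP, the decoy of IL-18, rose by 0.60 and IL18 fell by 0.74, and of the 14 only 1, IL1B, passed after the correction. IL18BP and IL18 each passed in 8 of 9 analyses that left out a library.

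Of the 14 other purinergic genes 4 rose and 2 fell with LPS_ABS against LPS (median 0.21). P2RY6 (0.72) and the adenosine receptors ADORA2A (1.04) and ADORA2B (0.62) rose, as did P2RX5 (0.79), and none of these 4 passed after the GC correction. The 1 purinergic gene that passed then was P2RX1, which fell (-0.74), and none passed with the correction and without LPS_ABS 3. Before the correction, only 2 rose without LPS_ABS 3 or LPS 3, and only 1 without LPS 1. Of the 9 analyses that left out a library P2RY6 passed in all, ADORA2A in 7, P2RX5 in 5 and ADORA2B in 2. NEK7, which binds NLRP3, fell from 51.4 to 25.0 CPM (-1.04), and NAIP, which binds NLRC4, fell from 2.70 to 1.27 CPM (-1.09), neither passing after the GC correction. NEK7 passed in 7 of 9 analyses that left out a library (-1.48 to -0.74), and NAIP in 8. NAIP has near-identical copies that may share reads. GSDME (-0.70), NINJ1 (0.23) and PANX1 (-0.06) did not pass.

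LPS_ABS against control sets both treatments against PBS, and shares its libraries with the other comparisons. Of the 9 members tested 5 rose (NLRP12, P2RX7, NLRP3, NLRP1 and GSDMD) and 1 fell (CASP1), beside 33.8% of all genes tested, 14.8% higher and 19.0% lower. The members' median was 0.44 and that of all genes 0.05. With the GC correction 2 rose, NLRP12 and P2RX7, beside 11.3% of all genes (6.85% higher, 4.48% lower), and the median was 0.02. Both genes were picked with their levels in these groups known, so their calls support nothing. In 6 of the 9 the groups did not overlap, beside 50.0% of all genes. PYCARD (0.27, adjusted p = 0.108) and CASP4 (-0.24, adjusted p = 0.259) did not pass, and PYCARD passed without LPS_ABS 3 (0.35, adjusted p = 0.0425, edgeR).

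Among 14 other sensors 3 rose and 1 fell against control (median 0.37). NLRX1 (0.53), NLRC5 (0.70) and MEFV (0.69) rose and NAIP fell by 1.19, none of these 4 passing after the GC correction. Without LPS_ABS 3 only 1 rose, and without control 1 or control 2 none did. Of 18 licensing factors and inhibitors 2 rose and 8 fell (median -0.38). TXNIP (0.91, 184.0 to 346 CPM) and the pyrin-binding adaptor PSTPIP1 (0.98) rose, and both still passed after the correction (1.26, adjusted p = 0.0033, and 0.56, adjusted p = 0.0191, edgeR). DPP8 (-1.11), BRCC3, the deubiquitinase of NLRP3 (-1.08), SUGT1 (-1.04) and NEK7 (-0.78) were among the falls. With a library left out NEK7 passed in only 2 of 9 analyses (-1.22 to -0.47), and the others passed in all 9. None of these 4 passed after the GC correction. The list as a whole then had 4 rises and 1 fall.

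Of 14 genes of execution and cytokines 3 rose and 2 fell against control (median 0.15). IL1B was 68.9 against 42.0 CPM (0.72, adjusted p = 0.0137, edgeR), NINJ1, which ruptures the membrane after pore formation, rose by 0.69, GSDME rose by 1.21, and HMGB1 fell by 0.80. After the GC correction 1 of these 14 passed, IL1B (0.92, adjusted p = 0.0112). Of 14 purinergic genes 2 rose, P2RX4 (0.90) and P2RX1 (0.95), and 1 fell, P2RY1 (-1.49), with a median of 0.03. After the GC correction none of these 3 passed, P2RY6 fell (-0.58), and the median was -0.25. IL18 (-0.01), CARD8 (-0.25) and PANX1 (-0.34) did not pass.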

How the data were processed

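The 9 libraries, 3 per group, were made from TRIzol-extracted RNA, and the labels' protocols give both a TruSeq Stranded mRNA and a VAHTS Universal V5 kit for each sample. The submitters' processing notes list DESeq2, HTSeq, HISAT2, fastp and R 3.2.0. Genome build, annotation and strand setting: not given in the sources used here. The authors deposited raw read counts and FPKM values for 16222 genes, and each FPKM was its count over a fixed gene length and the library's total. Samples were grouped by treatment, and columns matched to titles.

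Counts were tested with edgeR 4.0.16 (R 4.3.3). Genes kept by filterByExpr (12970, holding at least 99.98% of counts) were scaled by TMM, and 3 group means over all 9 libraries were compared by quasi-likelihood F tests with 6 residual degrees of freedom. The Benjamini-Hochberg adjustment covered the genes tested, and calls were made under 0.05. The common coefficient of variation was 18.4%, and totals of 38506162 to 41679412 counts make counting error matter mainly for genes of few counts. Within groups the chi-square divided by its degrees of freedom was at least 7.13, so no pair of libraries differed by counting error alone. That does not show whether they came from separate cultures. The scripts were tested on simulated data.

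The GC correction fitted, per library, a lowess trend (span 0.3) of log count on the GC content of the longest GENCODE transcript, available for 99.7% of the genes tested, as an offset. Other alternatives were DESeq2 1.42.0 (size factors and Wald test), total counts, no filter, limma 3.58.1 on log2(FPKM + 1), only the groups compared, a replicate block, and each library left out. The GC correction without LPS_ABS 3 was added after seeing the data. The members, gene lists and tests were chosen with earlier results of these data known. The text names all members. Of the other lists it names up to 4 called genes with the smallest adjusted p per comparison, and 11 landmark genes, some named genes not being reported here. For P2RX7 and NLRP12 it names the 5 genes of highest correlation. HSP90AB1 and P2RX1 in LPS_ABS against LPS, P2RY6 in LPS_ABS against control, and IRF7 and IRF8 in LPS_ABS against LPS were named after their values were seen.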

Additional observations from a re-analysis of the deposited data

How the results depend on the processing

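Of 97 fold changes named, the 1841 values under the alternatives kept direction and side of the threshold in 1560, lost the call in 227, gained it in 22 and changed sign in 32. NLRP1 has no value with only the 2 groups compared in the comparisons with control, being filtered out there.

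Genes called in LPS against control numbered 3245 with only the 2 groups compared, 3275 with the GC correction without LPS_ABS 3, and 873 to 2710 with a library left out (1933 with all). LPS_ABS against LPS gave 3042 with only the 2 groups, 913 with the GC correction, 1018 with it and the replicate block, 488 with it and without LPS_ABS 3, and 2360 to 4918 with a library left out (4621 with all). LPS_ABS against control gave 1469, 1425 and 2263 under the same 3 corrected settings and 2351 to 4793 with a library left out (4388 with all). Fewest genes were called without LPS 3, LPS 1 and control 1 in turn. Scaling by total counts, without TMM, 32.6% of the calls were higher in LPS_ABS against LPS (47.2% in the main analysis) and 26.7% in LPS_ABS against control (43.8%), the medians shifting by -0.10 and -0.13; limma on FPKM gave 32.3% and 25.9%, and the GC correction 60.4% in LPS_ABS against control.

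Members called in LPS_ABS against LPS numbered 3 with total counts, with no filter, with only the 2 groups and with the replicate block, 1 with the GC correction, 2 with it and the block, 1 with it and without LPS_ABS 3, and 3 to 6 with a library left out. In LPS_ABS against control they numbered 2 with the GC correction and 2 with it and the block, and 4 to 7 with a library left out, and in LPS against control 2 to 3. With a library left out, LPS_ABS against LPS gave 5 to 8 falls among licensing factors, 1 to 4 among execution genes and 1 to 4 rises among purinergic genes, and LPS_ABS against control gave 0 to 3 rises among other sensors, 1 to 4 among execution genes and 6 to 10 among transcription factors. In LPS against control the execution genes and the licensing factors each had 1 to 3 rises. The cause was not tested.

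The replicate numbers showed no clear pairing of the libraries. Same-numbered libraries correlated at -0.03 to 0.17, and of 9 pairs 3 correlated best with their own number. With 3 libraries per group this cannot exclude a pairing. The replicate block gave 1960, 4838 and 4573 calls in LPS against control, LPS_ABS against LPS and LPS_ABS against control, and 3, 3 and 4 members.

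The sign changed with the GC correction, with it and the block, and with it and without LPS_ABS 3, in that order, in LPS_ABS against LPS for PYCARD (-0.14, -0.14, -0.053), GSDMD (-0.27, -0.28, -0.16) and NINJ1 (-0.25, -0.28, -0.091), and in LPS_ABS against control for PYCARD (-0.14, -0.15, -0.045), IL18 (0.45, 0.43, 0.68) and CARD8 (0.35, 0.34, 0.24). With the first and second it changed in LPS_ABS against LPS for CARD8 (0.093, 0.088) and IRF3 (-0.014, -0.014), with the first and the last in LPS against control for PYCARD (0.0042, 0.0070), and with the last in LPS_ABS against control for CASP4 (0.093) and NEK7 (0.075). Leaving out a library turned CASP1 in LPS against control (-0.056 without control 3, up to 0.27), PANX1 in LPS_ABS against LPS (0.014 without LPS 3, 0.068 without LPS_ABS 2, down to -0.18) and IL18 in LPS_ABS against control (0.043 without control 2, 0.00075 without LPS 2, 0.21 without LPS_ABS 3). Depth limits NLRP1 and AIM2, with at most 27 counts in a library.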

Other observations

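Transcription factors known to act on inflammasome and interferon genes were listed with earlier results of these data known, and all 18 were tested. Their counts are therefore a description. With LPS 7 rose against control (median 0.18), led by the interferon factors STAT2 (1.36, from 75.1 to 192 CPM) and IRF7 (1.74) and by CEBPB (1.49), and the same number rose after the GC correction. Of all genes tested 7.71% rose with LPS against control (median -0.03), and 11.3% after the correction. With LPS_ABS against LPS 3 factors rose and 1 fell (median 0.21), beside 16.8% and 18.8% of all genes tested (median 0.02). NFKB2 (0.83), IRF3 (0.48) and NFKB1 (0.47) rose, and none of these 3 passed after the GC correction. There 3 factors fell, IRF7 (-0.87) and IRF8 (-0.44) among them, beside 3.71% of all genes tested.

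Against control 10 of the 18 rose and 1 fell with LPS_ABS (median 0.44), CEBPB (1.81), STAT2 (1.07), IRF7 (1.36) and IRF1 (0.72) among the rises. After the correction or without control 1, 6 rose. Of all genes tested 14.8% rose and 19.0% fell (median 0.05), and 6.85% rose after the correction. CEBPB, a factor of myeloid differentiation and stress responses, was at 187, 184 and 112 CPM in the LPS_ABS libraries and at 41.3 to 48.8 CPM in controls.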
